A study of Mus musculus with 6 samples.

Results

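Elane, Prtn3, Ctsg, Mpo and Ms4a3, which are transcribed in the immature neutrophil precursors that build primary granules, were followed in RNA from splenic CD8+ T cells. They are 5 of the 19323 genes in the deposited table. They were picked because their own values in these libraries were among the strongest differences between the diets. Their diet difference is therefore given as a description with no test. No threshold was set for the choice, and on the log2 scale used here the members stood at ranks 2, 4, 8, 12 and 26 from the top of 13430 tested genes.

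The cells came from spleens of wild-type C57BL/6 mice, put at 6 weeks of age on a diet labelled ND or one labelled MCDHFD and kept on it for 7 weeks. The fed mice are described as a model of MASH, which is steatohepatitis, an inflamed fatty liver. Each diet had 3 libraries, and neither a further genotype nor a drug is named. Whether the replicates are separate animals is not stated, nor is the way the CD8+ cells were isolated. The p-values below therefore reflect the spread of these 6 libraries alone, and that spread may be technical.

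Primary granules, also called azurophil granules, are storage vesicles that neutrophil precursors fill at the promyelocyte stage, mainly in bone marrow and, when blood formation moves outside the marrow, also in spleen. Their cargo is made early and then carried for life, so the mRNAs of these enzymes are abundant in promyelocytes and scarce in circulating neutrophils, while the genes of specific and gelatinase granules are switched on later. Elane encodes neutrophil elastase, Prtn3 proteinase 3 and Ctsg cathepsin G, all serine proteases. Mpo encodes myeloperoxidase, the haem enzyme that makes hypochlorous acid, and Ms4a3 encodes a membrane protein that marks granulocyte and monocyte progenitors. CD8 T cells are not known for making any of them, and store granzymes and perforin in their own granules.

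The libraries held between 13188812 and 15482458 recovered reads, and 3 reads, the limit that a count of 0 allows, equalled 2.82 to 3.36 normalized counts. Correlations of log2 values between libraries ran from 0.985 to 0.988 within a diet and from 0.896 to 0.916 between diets. The cell label was checked on 13 CD8 T cell markers. All were detected in every library, Cd8a for example at 13784 ± 350.4 normalized counts in ND and 5264 ± 458 in MCDHFD (SD, n = 3 per diet). The summed markers made up 0.546% to 0.557% of each ND library and 0.234% to 0.267% of each MCDHFD library, and all 13 fell. Other cell types' markers also differed. All 10 erythroid and all 10 red pulp macrophage markers rose, and all 8 B cell markers fell. Of 8 monocyte markers 5 rose and 3 fell, and of 4 tested megakaryocyte and platelet markers 2 rose and 1 fell. Among all tested genes 30.3% were higher and 28.1% lower, at a limma adjusted p under 0.05. The part of these shifts in the results below was not tested.

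The 5 genes lie at 4 places in the genome (mm10, GENCODE M21), and all are protein-coding. Elane (ENSMUSG00000020125, chr10:79886247-79888215, plus strand) and Prtn3 (ENSMUSG00000057729, chr10:79874476-79883174, plus strand) are neighbours, with 3073 bases between them. Ctsg (ENSMUSG00000040314) is at chr14:56099881-56102574 on the minus strand, in a cluster with granzyme and mast cell protease genes. Mpo (ENSMUSG00000009350) is at chr11:87793581-87804413 on the plus strand, and Ms4a3 (ENSMUSG00000024681) at chr19:11629496-11640851 on the minus strand. The longest coding transcripts of the protease genes all have 5 exons, with lengths of 984 bases for Elane, 1025 for Prtn3 and 1002 for Ctsg. Mpo has 14 exons in 2750 bases, and Ms4a3 has 7 exons in 1010 bases.

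Because the 5 genes were all high in the same libraries, a stretch of promoter is shown for each of them. In Elane, Prtn3, Ctsg and Mpo it was chosen to hold AGGAAGT, a word they share. The stretches are from RefSeq (GRCm38.p6), each on its gene's own strand, 5′ to 3′. Capitals mark AGGAAGT, which contains the core GGAAG recognised by ETS factors such as the product of Spi1, and the word AACNG, the core recognised by Myb, on either strand. The Elane window is chr10:79886198-79886272, that of Prtn3 chr10:79879543-79879617, that of Ctsg chr14:56102736-56102810, that of Mpo chr11:87793534-87793605 and that of Ms4a3 chr19:11640864-11640936. GENCODE M21 starts some transcripts earlier than RefSeq, so 26 bases of the Elane window, with its marked AACGG, 4 of the Prtn3 window and 25 of the Mpo window are exonic there, and the Prtn3 window lies inside the gene span given above.
Elane: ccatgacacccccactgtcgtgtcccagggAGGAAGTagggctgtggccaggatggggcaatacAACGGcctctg
Prtn3: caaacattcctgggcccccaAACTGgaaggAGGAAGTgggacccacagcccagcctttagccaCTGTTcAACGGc
Ctsg: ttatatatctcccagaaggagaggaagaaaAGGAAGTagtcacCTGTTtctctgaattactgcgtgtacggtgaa
Mpo: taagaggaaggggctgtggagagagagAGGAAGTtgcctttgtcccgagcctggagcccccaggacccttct
Ms4a3: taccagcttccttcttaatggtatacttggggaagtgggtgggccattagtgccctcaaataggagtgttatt

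In the 250 bases before the RefSeq start, AGGAAGT stood on at least 1 strand in Elane, Prtn3, Ctsg and Mpo, and in 7.69% of 32851 promoters. This set, called all promoters below, leaves out 1 chromosome, which holds none of the members, and any stretch shorter than 250 bases. The Ms4a3 window holds the shorter GGAAG in lower case and no AGGAAGT. The core GGAAG was found in all 5 promoters and in 64.1% of all promoters. AACNG was found in the same 4 promoters as AGGAAGT, and in 74.2% of all. TGNGGT, a word recognised by RUNX factors, was found in Ctsg alone of the 5 and in 40.1% of all. TTGCNNAA, a word recognised by C/EBP factors, was found in none of the 5 and in 9.56% of all. The words were searched on both strands and chosen with the sequences in view, and a match is a description of letters, not a binding site.

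Elane was nearly undetected in ND and clearly present in MCDHFD. Its normalized counts were 2.94, 0.973 and 0.990 in ND replicates 1 to 3, from 3, 1 and 1 reads. In MCDHFD replicates 1 to 3 they were 206, 404 and 403, from 219, 411 and 360 reads. The ND libraries were at or near the floor of 3 reads, and MCDHFD replicate 1 lay well below the other two. The means were 1.63 ± 1.13 in ND and 338 ± 114 in MCDHFD (SD, n = 3 per diet), a log2 difference of 7.02 between mean log2(normalized count + 1) values. The ratio of the pooled values was 204, with a 95% exact counting interval from 87.0 to 629. Here and below, the interval of a ratio pools the reads of each diet and leaves out the spread between libraries.

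Prtn3 had the highest ND counts among the proteases and the smallest log2 difference of the 5 genes. Its normalized counts were 8.81, 4.86 and 3.96 in ND and 199, 303 and 384 in MCDHFD. Every ND library held at least 4 reads, so this gene was measurable on both diets, at 5.88 ± 2.58 and 295 ± 92.8. The log2 difference was 5.44 and the ratio 49.3 (95% counting interval 31.0 to 83.5).

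A non-coding first exon of Prtn3 overlaps an exon of Plppr3 on the opposite strand, and the strand setting of the counting is not given. Plppr3, a phospholipid phosphatase relative best known in neurons, had 0.979, 0 and 16.8 normalized counts in ND and 45.2, 65.8 and 70.5 in MCDHFD, and rose (log2 difference 4.20, limma adjusted p = 0.00370). Reads of the shared stretch cannot be told apart between the overlapping genes.

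Ctsg had 1 read in ND replicate 1 and none in the other ND libraries. In MCDHFD it was found at 103, 263 and 195 normalized counts, from 109, 268 and 174 reads. Its spread in MCDHFD was the widest of the 5, with the highest library 2.57 times the lowest and a coefficient of variation of 43.2%. The means were 0.326 ± 0.565 and 187 ± 80.7, and the log2 difference was 7.12. A single ND read leaves the ratio of 567 poorly bounded, with a 95% counting interval from 101 to 22431.

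Mpo had the most reads of the 5 genes over the 3 libraries of either diet. Its normalized counts were 16.6, 5.84 and 0.990 in ND and 453, 1021 and 796 in MCDHFD. The ND libraries differed among themselves, with 17, 6 and 1 reads, and so set the size of the difference. The log2 difference was 6.85. Leaving out ND replicate 1 gave 7.60, and leaving out ND replicate 3 gave 6.03. The means were 7.82 ± 8.01 and 757 ± 286, a ratio of 95.7 (95% counting interval 64.1 to 149.7). That interval does not cover the spread among the ND libraries.

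Ms4a3 had no read in any ND library. In MCDHFD it was at 60.2, 113 and 99.5 normalized counts, from 64, 115 and 89 reads, with a mean of 90.9 ± 27.4. It was at least 30.9-fold higher than the mean of 3 reads per ND library. The log2 difference of 6.47 depends on the pseudocount for a gene at 0 and is no bound.

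**Figure D1:**
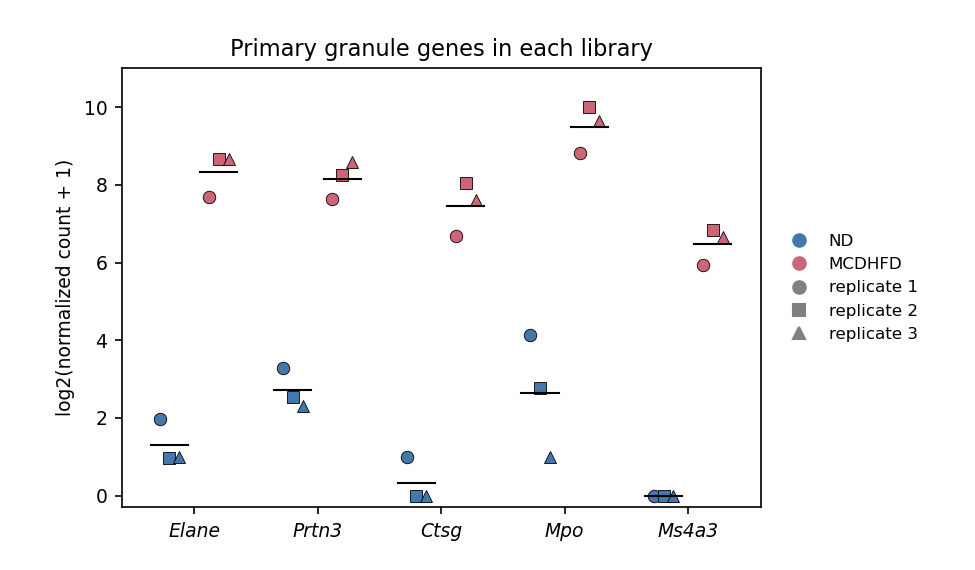
Each point is 1 library, with log2(normalized count + 1) on the vertical axis and the 5 primary granule genes on the horizontal axis. Lines are means of the 3 libraries of a diet, blue is ND and red is MCDHFD, and shapes are replicates. No ND library reached an MCDHFD library in any gene, and MCDHFD replicate 1 was the lowest MCDHFD library in all 5.

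In every one of the 5 genes, each MCDHFD library lay above each ND library. The same held for 33.2% of all tested genes, and nothing is read from this count because the genes were chosen on it. All 5 had an ND mean below 10 normalized counts and reached the tested set only through MCDHFD. In the tested set 461 genes had an ND mean below 10, and 381 of them were higher by the limma test. Plppr3 above, and Fcnb, Prss57, Epx, Prg2, Siglecf, Prss34, Cebpe, Gata2 and Itgb2l below, are also among those with an ND mean below 10. They too were tested only through MCDHFD, and for such genes the filter favours a call of higher.

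Levels of different genes were compared per kilobase of the longest coding transcript. In MCDHFD Elane led with 343 ± 116 normalized counts per kilobase, followed by Prtn3 with 288 ± 90.5, Mpo with 275 ± 104, Ctsg with 186 ± 80.5 and Ms4a3 with 90.0 ± 27.2. Elane was first, and Ctsg and Ms4a3 were the lowest, in this order, in each of the 3 libraries, while Prtn3 and Mpo changed places in replicate 2. The first 3 genes differed by less than their SDs. Per kilobase of all annotated exons the value was 170 for Prtn3, 221 for Mpo, 181 for Ctsg and 48.3 for Ms4a3, so the order below Elane depends on the transcript assumed. In MCDHFD, Elane per kilobase stood at or above 70.2%, 83.6% and 83.4% of the detected genes of the library, and Ms4a3 at or above 47.3%, 56.6% and 54.0%.

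The mix of the 5 transcripts was alike in the 3 MCDHFD libraries. Mpo supplied 44.4%, 48.5% and 42.4% of their summed normalized counts, Elane 20.2%, 19.2% and 21.5%, Prtn3 19.5%, 14.4% and 20.4%, Ctsg 10.1%, 12.5% and 10.4%, and Ms4a3 5.90%, 5.37% and 5.30%. Their sum was 1020 in replicate 1, 2104 in replicate 2 and 1877 in replicate 3, or 0.00700%, 0.0144% and 0.0127% of the library. In ND the sums were 29.4, 11.7 and 5.94. The whole set was therefore a very small part of each library on either diet.

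MCDHFD replicate 1 was low for the whole set, by more than counting error. Elane, for example, had a 95% counting interval of 180 to 235 normalized counts there and of 366 to 445 in replicate 2. Relative to the mean of the 3 MCDHFD libraries, the sum of the 5 genes was 0.61 in replicate 1, 1.26 in replicate 2 and 1.13 in replicate 3. The erythroid markers were at 0.70, 1.17 and 1.13, the specific granule genes at 0.80, 1.16 and 1.05, and the red pulp macrophage markers at 0.86, 1.07 and 1.07. CD8 T cell markers went the other way, at 1.09, 0.95 and 0.96. Replicate 1 was the lowest MCDHFD library for 12 of 13 tested specific granule genes, 10 of 10 erythroid markers and 0 of 13 CD8 T cell markers, against 38.1% of all tested genes. In bulk RNA, fewer cells of a type and less RNA per cell cannot be told apart, and the part of the other cells' markers in this spread was not tested. Without this library the log2 differences were 7.34 for Elane, 5.70 for Prtn3, 7.50 for Ctsg, 7.18 for Mpo and 6.74 for Ms4a3.

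**Figure D2:**
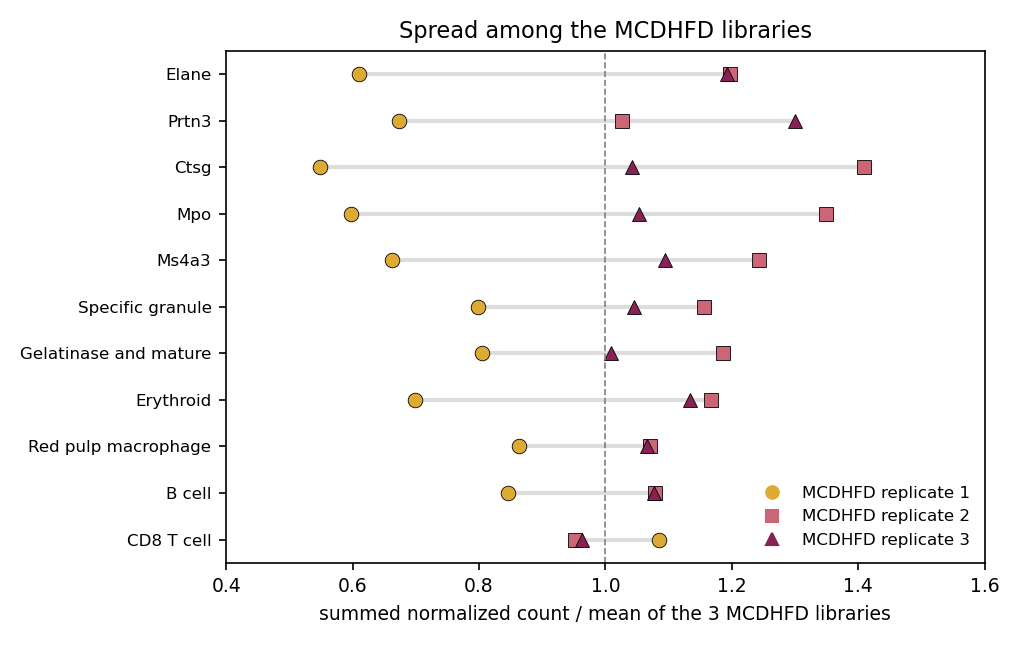
Each row shows the 3 MCDHFD libraries, and the horizontal axis is the normalized count of a gene, or the summed normalized count of a list, divided by the mean of the 3 libraries. Replicate 1 was at 0.61 of the mean for Elane and 0.55 for Ctsg, closer to the mean for the later granule lists, and above it, at 1.09, for CD8 T cell markers.

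ND replicate 1 held most of the few ND reads. The sum of the 5 genes relative to the ND mean was 1.88 there, 0.75 in replicate 2 and 0.38 in replicate 3, and replicate 1 was the highest ND library for each of the 4 members with an ND read. Some later granule genes had the same order. Ngp had 493, 221 and 168 normalized counts in ND, Ltf 320, 140 and 109, and Camp 72.4, 37.9 and 32.7. Replicate 1 was the highest ND library for 7 of the 13 tested specific granule genes and for 35.3% of all tested genes.

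The genes nearest in pattern to the set were sought by the distance between their log2 values over the 6 libraries, each centred on its own mean, and the mean of the 5 members treated alike. Car1, a carbonic anhydrase of red cell precursors, was nearest at a distance of 0.53, against 0.62 for Elane, 0.77 for Ctsg, 0.90 for Ms4a3 and 1.45 for both Mpo and Prtn3. Car1 was at 24.5, 19.5 and 13.9 normalized counts in ND and at 1391, 1982 and 2097 in MCDHFD. It was followed by Stfa1 (0.71), Kcnt1 (0.79), Ighe (0.95), Ces2g (1.05), BC100530 (1.11), Stfa2 (1.14), Slc22a4 (1.27), Msr1 (1.30) and Tc2n (1.41). Stfa1, Stfa2 and BC100530 belong to the stefin family of cysteine protease inhibitors, whose near-identical copies make their single values uncertain. Ighe encodes the IgE heavy chain and Msr1 a macrophage scavenger receptor. Stfa1, Kcnt1, Ighe, Ces2g, BC100530, Stfa2, Slc22a4 and Tc2n had an ND mean below 10 and were tested only through MCDHFD. The 10 genes share the 6 libraries with the members and a large diet difference. The members were chosen on that difference, so the likeness is a description.

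Most other genes of promyelocytes rose. That they rose by less than the members follows from the choice of the members by the size of their difference. Of 11 tested genes 9 rose and 2 fell, and the median log2 difference was 1.56, against 30.3% of all tested genes higher, 28.1% lower and a median of 0.00. Fcnb, a ficolin of immature neutrophils, had 1.96, 0.973 and 0.990 normalized counts in ND and 18.8, 44.2 and 39.1 in MCDHFD (log2 difference 3.87, SE 0.46, limma adjusted p = 0.000112). Prss57, a serine protease of primary granules, had 1.96, 3.89 and 0 in ND and 6.59, 36.4 and 19.0 in MCDHFD (2.87, SE 0.76, adjusted p = 0.0105). Both were lowest in MCDHFD replicate 1 and both were far below Elane per kilobase. Hgf (2.53), a growth factor, Gstm1 (1.92), a glutathione transferase, and Rab44 (1.91), a small GTPase, also rose. So did Trem3 (1.56), from a mean of 19.6 normalized counts in ND. Igsf6 (1.42), Clec12a (0.99) and Alas1 (0.37) rose from ND means of 623, 456 and 300, so unlike the members they were abundant in ND. The part of other cell types in this list was not tested. The genes that fell were Plac8 (-0.79) and Ly6c2 (-0.88), which lymphocytes also express. Both turned positive when the CD8 T cell markers were held equal between libraries.

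**Figure D3:**
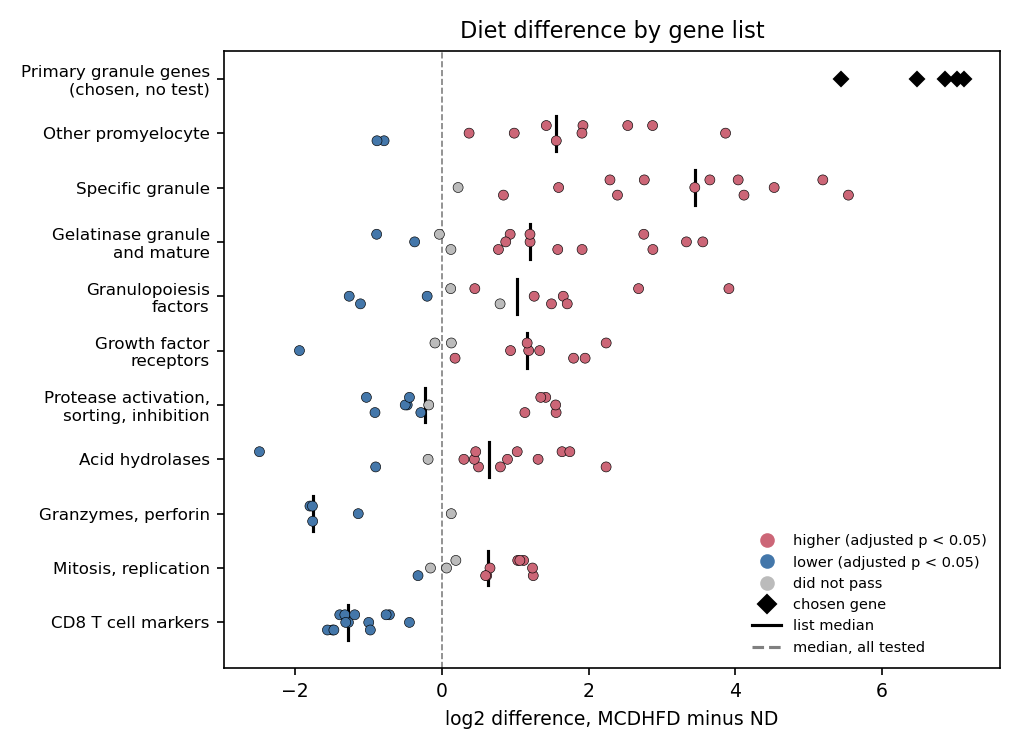
Each circle is 1 tested gene, placed by its log2 difference between MCDHFD and ND and grouped by list, with the list median as a vertical bar and the median of all tested genes as a dashed line. Red and blue mark genes higher and lower at a limma adjusted p under 0.05, grey marks genes that did not pass, and the 5 chosen genes are black diamonds. The chosen genes sit between 5.44 and 7.12, specific granule genes have a median of 3.45 and CD8 T cell markers a median of -1.27.

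The genes that process and inhibit the granule proteases split. Of 12 tested, 5 rose and 6 fell, with a median of -0.23. Ctsc, the dipeptidyl peptidase that activates elastase, proteinase 3 and cathepsin G as well as granzymes, rose from 4078 ± 196.6 to 10894 ± 897 normalized counts (log2 difference 1.42, SE 0.07, limma adjusted p = 6.29e-07). Serpinb1a, a cytosolic inhibitor of these proteases, rose from 139.8 ± 18.0 to 417 ± 86.7 (1.56, adjusted p = 6.04e-05), and Slpi (1.35), a secreted inhibitor of elastase, rose too. So did Cd63 (1.13), a granule membrane protein, and Rab27a (1.55), which docks granules for release. Those that fell included Cst7 (-1.03), an inhibitor of Ctsc, and Srgn (-0.47), the proteoglycan that packs granule proteases and is shared with cytotoxic T cells. With the CD8 T cell markers held equal, 11 of the list were higher and 0 lower, so the direction of the members that fell depends on the scaling. Most genes moved alike, since 11534 of all 13430 tested genes were higher and 376 lower under that scaling.

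Acid hydrolases, which primary granules share with the lysosomes of all cells, mostly rose. Of 14 tested, 11 rose and 2 fell, and the median was 0.65. Ctsb (2.24), Ctsd (1.74) and Ctsz (1.31) encode lysosomal cathepsins, and Man2b1 (1.64) encodes a mannosidase. All of these are abundant in macrophages, whose 10 markers summed to 0.272% to 0.334% of the ND libraries and 1.35% to 1.67% of the MCDHFD libraries. Lysozyme, a cargo of granules, did not follow. Lyz2 was at 1080 ± 91.5 in ND and 947.8 ± 85.0 in MCDHFD and did not pass (-0.19, limma adjusted p = 0.0989). It passed as lower with quantile scaling and without ND replicate 3 (both -0.26, adjusted p = 0.0311 and 0.0411). Lyz1 fell (-2.49), from 23.5 ± 5.40 to 3.92 ± 2.88. Lyz1 and Lyz2 are close copies, so their split is uncertain. Arsb (-0.90), a sulfatase, was the other gene that fell, and it was positive (0.24) with the CD8 T cell markers held equal, as was Lyz2 (0.96).

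Only 1 relative of Mpo could be tested. Epx, the eosinophil peroxidase, had 0.979, 0.973 and 0 normalized counts in ND and 16.9, 29.5 and 25.7 in MCDHFD, and rose (log2 difference 3.96, SE 0.50, limma adjusted p = 0.000159). Of 6 tested eosinophil markers, 5 rose and 1 fell. Epx, Prg2 and Siglecf are the 3 of them with an ND mean below 10, and they reached the tested set only through MCDHFD. Prg2, the major basic protein of eosinophil granules, rose (4.79) from 3.25 ± 4.05 to 85.6 ± 37.2, and Siglecf, a surface receptor of eosinophils, rose (3.47) from 1.63 ± 0.555 to 29.1 ± 12.3. Ear2, a ribonuclease, was at higher levels and rose from 277 ± 44.1 to 1748 ± 212.6. Il5ra, a chain of the receptor for interleukin-5, fell (-2.24), from 36.9 to 7.24. The tested mast cell and basophil markers went opposite ways. Prss34, a basophil protease, rose (3.81) from 0.977 ± 0.979 to 24.5 ± 5.02, and Hdc, which makes histamine, fell (-0.60, but 0.54 with the CD8 T cell markers held equal) from 166.7 ± 4.02 to 109.95 ± 0.985. The other 6 of 8 in the table were too low to test, among them Mcpt8 with 0.979 ± 1.70 and 6.59 ± 6.26. Their part in the values of Ctsg and Mpo was not tested.

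The transcription factors that direct granule formation rose in part. Of 12 tested, 7 rose and 3 fell, and the median was 1.03. Cebpe, which drives the step from promyelocyte to later stages, had 7.83, 0.973 and 0.990 normalized counts in ND and 36.7, 49.1 and 61.5 in MCDHFD (log2 difference 3.91, SE 0.59, limma adjusted p = 0.000494). Its ND libraries had the order seen in the members, with replicate 1 highest. Cebpa, needed early in granulocyte formation, rose from 141.9 ± 10.6 to 916 ± 85.4 (2.68, limma adjusted p = 1.88e-07). Cebpb (1.65), Cebpd (1.71) and Spi1 (1.49), which macrophages also express, rose as well. Irf8, which steers progenitors towards monocytes and away from neutrophils, did not pass (0.12). It passed with library weights (0.14, limma adjusted p = 0.0423) and with the CD8 T cell markers held equal (1.27, adjusted p = 2.94e-07). The median of all tested genes was 1.14 under the latter scaling. Meis1 did not pass in the main fit (0.79, limma adjusted p = 0.303). Gfi1 (-1.26) and Myb (-1.11), both with parts in early granule gene transcription and in lymphocytes, fell. Cbfb (-0.20), the partner of RUNX factors, passed narrowly (limma adjusted p = 0.0402). Its call was lost without any filter (-0.20), with library weights (-0.17), without ND replicate 1 (-0.12) and without any single MCDHFD library (-0.19 to -0.21). Myb was at 0.04, Cbfb at 0.94 and Gfi1 at -0.12 with the CD8 T cell markers held equal.

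Most genes in the list of myeloid growth factor receptors and progenitor markers rose, but the G-CSF receptor gene did not pass. Of the 11 tested, 8 rose and 1 fell, and the median was 1.16. Csf2rb (1.95), the shared chain of the receptors for interleukin-3, interleukin-5 and GM-CSF, Csf1r (1.79), the macrophage growth factor receptor, and Cdk6 (1.33), a cell cycle kinase of progenitors, rose. Csf3r, the G-CSF receptor that is kept from promyelocyte to mature neutrophil, was at 666.7 ± 60.2 in ND and 730.2 ± 85.6 in MCDHFD and did not pass (0.13, limma adjusted p = 0.304). Kit, the stem cell factor receptor, did not pass either (-0.09). Both Csf3r and Kit passed with the CD8 T cell markers held equal (1.27 and 1.05, limma adjusted p = 6.93e-06 and 5.50e-05). The median of all tested genes was 1.14 under that scaling. Gata2 (2.24), a factor of progenitors and mast cells, rose, and Flt3 (-1.94), a receptor of lymphoid and dendritic progenitors, fell.

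Specific granule genes, which neutrophil precursors switch on after the primary granule genes, rose in 12 of 13 tested members with none lower and a median of 3.45. Ngp, a cathelicidin relative, rose from 294 ± 174.5 to 4667 ± 979 normalized counts (log2 difference 4.12, SE 0.34, limma adjusted p = 1.31e-05), and Chil3, a chitinase-like protein, from 39.9 ± 19.7 to 1749 ± 333.7 (5.54, SE 0.35, adjusted p = 2.37e-06). Lcn2 (4.04), which binds bacterial iron carriers, and Cd177 (4.53), the surface partner of proteinase 3, also rose. Itgb2l, an integrin of neutrophils, rose (5.19) in the limma test, and missed the threshold in DESeq2 (adjusted p = 0.0519). Pglyrp1, a peptidoglycan binding protein, did not pass (0.22). It passed without MCDHFD replicate 1 (0.44, limma adjusted p = 0.0211) and with the CD8 T cell markers held equal (1.36, limma adjusted p = 0.000201). Per kilobase, Ngp stood at 3819 and Camp at 677.5 normalized counts in MCDHFD, above Elane at 343.

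Gelatinase granule and mature neutrophil genes moved less uniformly. Of 15 tested, 11 rose and 2 fell, with a median of 1.20. S100a8, part of the calprotectin complex, rose from 136.7 ± 39.9 to 1628 ± 548 (log2 difference 3.56, SE 0.27, limma adjusted p = 7.77e-06), with S100a9 (2.88), Ccl6 (3.33), a chemokine, Retnlg (2.75), a resistin-like protein, and Itgam (1.91), an integrin chain shared with monocytes. Cxcr2, the chemokine receptor that mature neutrophils need to leave the marrow, was at 89.8 ± 10.1 in ND and 89.0 ± 22.0 in MCDHFD (-0.03, adjusted p = 0.895). G0s2 did not pass (0.12), and Il1b (-0.89) and Mxd1 (-0.37) fell. Cxcr2, Il1b and Mxd1 turned positive with the CD8 T cell markers held equal, and G0s2 passed (1.22, limma adjusted p = 0.00167). Ly6g, the classical surface marker of mouse neutrophils, had 20.6, 2.92 and 2.97 normalized counts in ND and 2.82, 5.90 and 4.47 in MCDHFD, too low to test.

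Within a library, the ratio of the 5 genes to either later granule list was higher in each MCDHFD library than in each ND library. Per 100 normalized counts of the specific granule list, the 5 genes summed to 0.752, 0.291 and 0.158 in ND and to 7.05, 10.0 and 9.91 in MCDHFD. Per 100 of the gelatinase and mature list they summed to 0.735, 0.306 and 0.165 in ND and to 12.3, 17.3 and 18.1 in MCDHFD. MCDHFD replicate 1 was the lowest of its diet in both ratios. These ratios do not depend on the scaling between libraries. They rest on the chosen genes and carry no test. That they were higher in MCDHFD follows from the choice of the members by the size of their difference. Both later lists include genes that macrophages and monocytes express. Cybb (1378) and Cyba (1507) made up most of the mean specific granule sum of 3889 in ND, against 4168 and 2689 of 18125 in MCDHFD. Mxd1 (1412) and Il1b (761), which fell, made up most of the mean mature sum of 3804 in ND, against 1092 and 410 of 10274 in MCDHFD. The size of the change in these ratios therefore depends on which genes the lists hold.

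**Figure D4:**
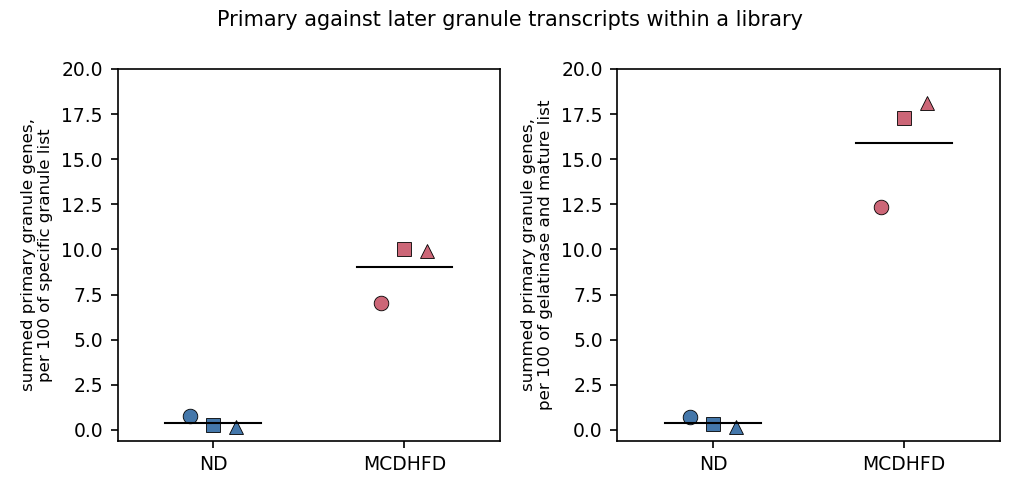
The vertical axes give the summed normalized counts of the 5 primary granule genes per 100 summed normalized counts of the specific granule list (left) and of the gelatinase and mature neutrophil list (right). Circles, squares and triangles are replicates 1, 2 and 3 and lines are means. The MCDHFD libraries sit between 7.05 and 10.0 on the left and between 12.3 and 18.1 on the right. The ND libraries sit below 1 on both. The direction follows from the choice of the 5 genes by their diet difference.

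The cytotoxic granule genes of the T cells themselves, relatives of the chosen proteases, went the other way. Of 5 tested, 4 fell and none rose, with a median of -1.76. Gzma, which encodes granzyme A, fell from 94.4 ± 1.23 to 27.7 ± 9.53 normalized counts (log2 difference -1.80, SE 0.27, limma adjusted p = 0.000484). Gzmk and Gzmm (both -1.76) and Prf1 (-1.14), the perforin gene, fell as well. Gzmb did not pass, at 152.9 ± 5.16 in ND and 167.5 ± 14.7 in MCDHFD (0.13, adjusted p = 0.365). Prf1 was at 0.00 and Gzmb at 1.27 with the CD8 T cell markers held equal. Promyelocytes divide, and 8 of 12 tested mitosis and replication genes rose with 1 lower and a median of 0.63. Mki67 (1.11), the cyclin genes Ccnb1 (1.25), Ccnb2 (1.03) and Ccna2 (1.06), and their kinase Cdk1 (1.24) rose. Top2a (-0.16), Bub1 (0.19) and Mcm2 (0.06) did not pass and Mcm5 (-0.33), a replication helicase subunit, fell. Mcm5 and Top2a turned positive with the CD8 T cell markers held equal, and Bub1 (1.32) and Mcm2 (1.21) then passed as higher. Erythroid precursors and T cells also divide, and their part in this list was not tested.

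Genes next to the members in the genome went in both directions. Within 50 kb lay 21 other protein-coding genes, of which 10 were tested. Of these 4 rose, 2 fell and 4 did not pass, against 30.3% higher and 28.1% lower among all tested genes. Plppr3 (4.20), which overlaps Prtn3, rose most. Ptbp1, a splicing factor 9705 bases from Prtn3, was at 5341 ± 167.2 normalized counts in ND and 5344 ± 508.6 in MCDHFD (log2 difference -0.00, limma adjusted p = 0.973). Med16, a Mediator subunit 6493 bases from Elane, rose by a small amount (0.37, adjusted p = 0.00181). Tspoap1, 7653 bases from Mpo, fell (-0.62, adjusted p = 0.00144). Ms4a6d, a macrophage relative of Ms4a3 that lies 24647 bases from it, rose from 97.3 ± 9.97 to 807 ± 188.5 (3.02, adjusted p = 1.42e-06). Beside Ctsg, the basophil protease gene Mcpt8 was too low to test. With the CD8 T cell markers held equal, Ptbp1 was at 1.14, which is the median of all tested genes under that scaling, and Tspoap1 at 0.52.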

How the data were processed

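RNA of splenic CD8+ T cells was sequenced in 3 ND and 3 MCDHFD libraries. Per the labels' protocols, either of 2 kits was used, for whole RNA or for mRNA. Not given in the sources used here are each library's kit, the aligner, the counting tool and strand setting, and the annotation. Reads were processed on mm10, per the submitters' processing notes. The deposited values are a signal, read counts that the authors scaled per library, called normalized counts per the file headers. All values of each library were whole multiples of 1 step, at a tolerance of 0.01, so reads were recovered.

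Symbols were matched by identifier for 19202 of 19323 genes. Genes with a mean of at least 10 were tested on log2(value + 1) with limma 3.58.1 (intensity trend, diet as the only term, R 4.3.3) and Benjamini-Hochberg adjustment over all 13430 at 0.05. The log2 scale with a pseudocount of 1 understates low genes. Coordinates and lengths are from GENCODE M21 and promoters from RefSeq (GRCm38.p6), both matched for all 5 members. Counting intervals (95%, exact) and the floor of 3 reads cover counting error only, since no molecular identifiers separate molecules from copies.

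The members and lists were chosen with earlier results of these data known. Named genes were the members, up to 5 passing genes of a list by size and up to 4 others by mean, coding neighbours within 50 kb and the 10 most alike genes, passing over Gm and Rik symbols. Where few genes of a list fell or did not pass, and where genes served to compare library order or levels, some were named after their values were seen. Alternatives were other pseudocounts, filters, scalings, weights, a replicate block, each library left out, a stricter threshold, and count tests on recovered reads (edgeR 4.0.16, DESeq2 1.42.0). The fit was tested on simulated data.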

Additional observations from a re-analysis of the deposited data

How the results depend on the processing

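Setting the mean log2 of the CD8 T cell markers equal in all libraries moved most values, since it shifted the median of all tested genes from 0.00 to 1.14. It gave 11534 genes higher and 376 lower, against 4065 and 3772, and 11 higher and 0 lower in the protease activation list. The log2 differences then were 7.90 for Elane, 6.48 for Prtn3, 7.78 for Ctsg and 7.04 for Ms4a3. It turned positive Arsb (0.24), Cbfb (0.94), Cst7 (0.12), Cxcr2 (1.10), Hdc (0.54), Il1b (0.25), Kit (1.05), Ly6c2 (0.26), Lyz2 (0.96), Mcm5 (0.82), Mxd1 (0.77), Myb (0.035), Plac8 (0.36), Prf1 (0.0044), Ptbp1 (1.14), Srgn (0.67), Top2a (0.99) and Tspoap1 (0.52). Without a change of sign, Bub1 (1.32), Csf3r (1.27), G0s2 (1.22), Gzmb (1.27), Irf8 (1.27), Mcm2 (1.21) and Pglyrp1 (1.36) newly passed as higher under that scaling. Gfi1 (-0.12) lost its call. Quantile scaling gave 3552 higher and 4557 lower, and log2 differences of 6.45 for Elane and 5.85 for Ms4a3.

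A pseudocount of 5 gave 5.64 for Elane, 4.76 for Prtn3, 5.08 for Ctsg and 4.22 for Ms4a3, and a pseudocount of 0.5 gave 7.93 for Ctsg and 7.47 for Ms4a3. On recovered reads edgeR gave 8.68 for Ctsg and 9.51 for Ms4a3, and DESeq2 gave 7.69 for Elane, 9.05 for Ctsg and 8.97 for Ms4a3. The cause of the differences between tools was not tested. A filter at a mean of 50 left 5 higher genes in the other promyelocyte list, since it tests fewer genes, and gave no value for Ms4a3. The values followed here were the calls over all genes, the leading counts of the lists other than cell type markers, and the members. Each of the other 284 alternative values of these stayed within 1.5 times the count or 1 SD of the log2 difference. Counts of the cell type markers were not among them, and some moved. Megakaryocyte and platelet markers called higher were 1 with quantile scaling, in DESeq2 and without MCDHFD replicate 1, and 4 with no filter. In the fits without a library, the log2 differences ran from 6.85 to 7.35 for Elane and from 6.03 to 7.60 for Mpo.

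The replicate numbers are shared between the diets, but same-numbered libraries did not deviate together (correlations of 0.04, 0.06 and 0.01). With the replicate block, 4010 genes were higher and 3697 lower, and the 80 tested genes followed across the settings all kept their direction and call. Depth limits the ND values, which rest on 0 to 17 reads per gene and library.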

Other observations

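Some progenitor genes, and a platelet gene, lay under the limit for testing and are given as values only. Hoxa9, a homeobox factor of early myeloid progenitors, was listed at 0 in each ND library and at 12.2, 12.8 and 7.83 normalized counts in MCDHFD. Cd34, a surface protein of progenitors, had 0.979, 1.95 and 5.94 normalized counts in ND and 17.9, 12.8 and 17.9 in MCDHFD, so that no ND library reached an MCDHFD library. Gp1bb, a platelet glycoprotein made by megakaryocytes, had 0, 1.95 and 0 normalized counts in ND and 5.65, 31.5 and 16.8 in MCDHFD. The 7 megakaryocyte and platelet markers that include it went the other way as a sum, at 496 ± 24.4 in ND and 268 ± 11.8 in MCDHFD. Of the 4 tested, 2 rose, 1 fell and 1 did not pass. Hoxa9, Cd34 and Gp1bb were picked after their values were seen.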
